A study of Mus musculus with 8 samples.

Results

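Collagens are the main structural proteins of the extracellular matrix, and their 44 chain genes were compared between sorted cell fractions of mouse mammary tumors. The members were every gene of the array whose platform annotation gave exactly 1 symbol of the form Col, number, a, number. They came from 46 rows, and the brighter row over all 8 arrays stood for each of the 2 genes with more than 1 row (Col6a5 and Col6a6). They are 44 of 19938 genes tested, and they were divided by the known structure of their chains into 11 fibrillar, 8 basement membrane and 25 other collagens.

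The data are 8 arrays (Affymetrix Mouse Gene 1.0 ST), 4 of a sorted fraction labelled TIC, described as enriched for tumor-initiating cells, and 4 of a fraction labelled CD24-, described as not tumor-initiating. All samples came from primary mammary tumors under 1.0 cm across in FvB mice with the MMTV-Neu genotype, in which a mammary tumor virus promoter drives the Neu (rat Erbb2) receptor in mammary epithelium. Each TIC array has a CD24- partner sorted from the same tumor (N251, N260 and N283) or from an equal mixture of tumors N222 and N229, called the pool here. The labels state neither age nor the gate that defined TIC. A value below is a log2 intensity, and a difference is TIC minus CD24- on the log2 scale, so that 1 unit is a 2-fold change.

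A collagen molecule is a triple helix of 3 chains, and cells assemble it in the endoplasmic reticulum from chains of the same or of different genes. Fibrillar chains (types I, II, III, V, XI, XXIV and XXVII) build the cross-linked fibrils of connective tissue and are made mostly by fibroblasts and cartilage cells. Type IV chains form the network of basement membranes, the sheets on which epithelium and endothelium rest, and types XV and XVIII lie in the same zone. The others coat fibrils (types IX, XII, XIV and relatives), form beaded filaments (type VI), anchor the epithelium (types VII and XVII) or form hexagonal networks (types VIII and X). In carcinomas fibrillar collagen is known chiefly as a product of stromal fibroblasts.

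Markers of cell types were compared between the labelled fractions. Cd24a, the gene of the surface protein that names the CD24- fraction, was at 12.26, 12.06, 12.50 and 12.47 in the TIC arrays of N251, N260, N283 and the pool and at 10.53, 11.01, 12.12 and 11.20 in the CD24- arrays. Each CD24- array lay below its partner, but all were bright (the upper quartile of gene means was 8.91), and that of N283 lay above the TIC array of N260. The difference of 1.11 ± 0.21 (SE) was not called (adjusted p = 0.0691, limma with the tumor as a block), though it was with the random block (0.0293), with array weights (0.0358) and without N251 (0.0483).

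Of 8 luminal epithelial markers all were measured, with list means of 11.25 to 11.30 in the TIC arrays and 10.28 to 11.19 in the CD24- arrays, with the lowest value in the CD24- array of N251, and 0 were called (limma; 3 higher at an unadjusted p under 0.05, 0 called without the block). Of 6 myoepithelial markers 1 rose (Oxtr, by 1.21, adjusted p = 0.0457, limma). At an unadjusted p under 0.05, 3 of the 6 were higher and 0 lower. The call of Oxtr was lost without the block (0.158), among genes at or above the median level (0.0610) and with all rows tested (0.0967). It was also lost without N260, N283 or the pool (0.190, 0.176 and 0.0641). Of 4 Schwann cell markers 2 were measured and 0 called (limma; largest difference Cdh19, 0.76; 0 at an unadjusted p under 0.05 and 0 without the block). Of 8 macrophage markers all 8 fell in the TIC fraction, with list means of 6.41 to 6.79 against 10.30 to 12.81, and the largest difference was that of Lyz2 (-5.77). All 8 were called without the block too. Of 5 pan-leukocyte markers all 5 fell, led by Cd53 (-5.50), and 3 were called without the block, where Coro1a and Itgb2 missed the threshold (adjusted p = 0.0515 and 0.0604). The calls of Lyz2 and Cd53 were lost with all rows tested and without N260 or N283. Of 10 fibroblast markers 1 fell (Thy1) and 0 rose, with list means of 5.91 to 6.15 in the TIC arrays and 6.33 to 6.91 in the CD24- arrays. At an unadjusted p under 0.05, 7 of the 10 were lower and 0 higher, and without the block 0 were called (limma). For 4 of the 10 (Dcn, Lum, Fap and Dpt) the arrays did not overlap and TIC was lower. Over all genes 4.68% were lower and 5.19% higher without overlap. The endothelial (10 genes), pericyte and smooth muscle (7 genes) and adipocyte (4 genes) lists had 0 members called, with lowest adjusted p-values of 0.0807, 0.194 and 0.619 (limma with the tumor as a block). Their largest differences were those of Eng (-0.96), Notch3 (0.45) and Lep (0.097). At an unadjusted p under 0.05, 4 endothelial genes were lower, 1 pericyte gene was higher and 0 adipocyte genes differed, and without the block 0 were called in each list too. Over all genes 0.863% were called higher and 1.09% lower with the block, and 0.0502% and 0.742% without it (limma). At an unadjusted p under 0.05, 14.2% of all genes were higher and 8.08% lower with the block.

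As a family the collagen genes differed little between the fractions. Of 44 members 1 fell in the TIC fraction, Col14a1, which is 2.27% of members where 1.09% of all genes fell, and 0 rose where 0.863% of all genes rose (limma, tumor as a block, adjusted p under 0.05). Without the block 0 members fell and 0 rose, where 0.742% of all genes fell and 0.0502% rose. With the tumor as a random block Col14a1 fell and Col4a6 rose, where 3.04% of all genes fell and 2.16% rose. These shares are near those of all genes. The median difference was -0.0099 over the 44 members and 0.038 over all genes.

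Weaker criteria gave the same picture. At an unadjusted p under 0.05, 5 members (11.4%) were higher and 3 (6.82%) lower, where 14.2% and 8.08% of all genes were. The 5 were Col11a1, Col4a5, Col4a6, Col9a1 and Col12a1, and the 3 were Col1a1, Col6a3 and Col14a1. In all 4 tumors 7 members (15.9%) were higher and 6 (13.6%) lower, beside 23.2% and 11.8% of all genes. The TIC and CD24- arrays did not overlap for Col11a1 and Col9a1, which were higher (4.55% of members and 5.19% of all genes), and for Col14a1, which was lower (2.27% and 4.68%).

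Tumor N283 had the most members below 0. Its difference was below 0 for 36 of the 44 members, with a median of -0.14, against 16 members in N251, 11 in N260 and 22 in the pool. Over all genes 47.6% were below 0 in N283, with a median difference of 0.013. Genes with a mean signal between 6.19 and 7.45, the lower quartile and the median of gene means, where 24 of the 44 members lie, had a median of -0.071 in N283. Genes between that median and the upper quartile of 8.91, where 18 members lie, had a median of 0.077 in N283. The cause of the members' lower median in that tumor was not tested.

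**Figure D1:**
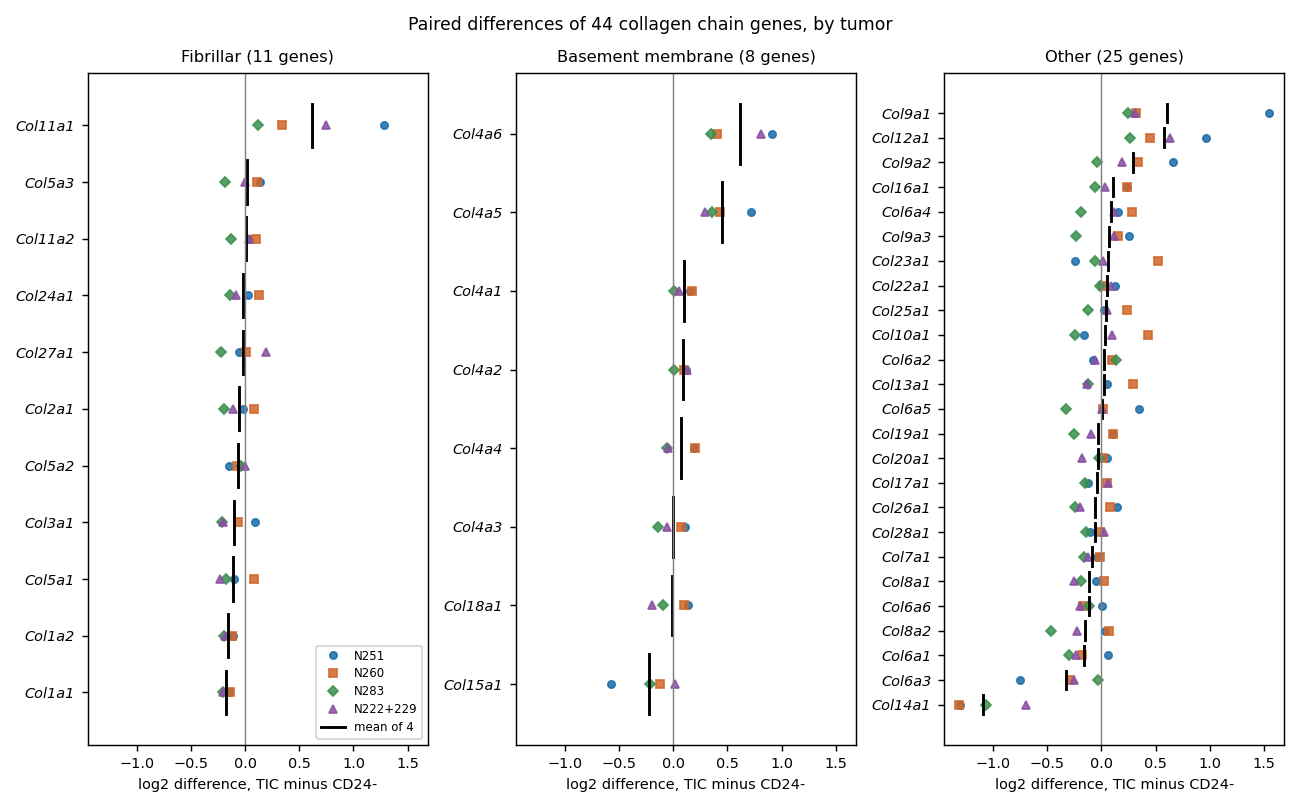
Log2 difference (TIC minus CD24-) of each of the 44 collagen genes in each tumor, in panels for fibrillar, basement membrane and other collagens; symbols are tumors or the pool, and black bars are means of the 4 differences. Most members lie close to 0, Col14a1 lies lowest with a mean of -1.09, and Col11a1, Col4a6, Col4a5, Col9a1 and Col12a1 lie above 0 in all 4 tumors.

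Fibrillar collagens, the chains of connective tissue fibrils, showed no called difference. Of 11 members 0 rose and 0 fell (limma with the tumor as a block, and 0 without it). At an unadjusted p under 0.05, 1 (9.09%) was higher and 1 (9.09%) lower, where 14.2% and 8.08% of all genes were. Of the 11 members, 3 had a mean difference above 0 and 8 below. Their median difference was -0.060, and by tumor it was -0.023, 0.080, -0.19 and -0.085 (N251, N260, N283, pool). The direction of the median was therefore not the same in every tumor.

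Col1a1 and Col1a2, the chains of type I collagen and the textbook products of fibroblasts, read slightly lower in the TIC array of every tumor without passing the test. In the order N251, N260, N283 and pool, Col1a1 was at 7.81, 7.67, 7.63 and 7.50 in the TIC fraction and at 7.96, 7.82, 7.84 and 7.71 in the CD24- fraction. The groups overlapped, while each TIC array lay below its own partner. The difference of -0.18 ± 0.067 (SE) was not called (adjusted p = 0.208), and its 95% confidence interval of -0.34 to -0.01 does not reach a 2-fold change.

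Col1a2 followed its partner chain closely. Its values were 7.68, 7.51, 7.47 and 7.44 in the TIC fraction and 7.79, 7.63, 7.67 and 7.63 in the CD24- fraction. The difference was -0.15 ± 0.068 (adjusted p = 0.252), with tumor differences of -0.11, -0.12, -0.19 and -0.19. Col3a1, the chain of type III collagen that joins type I in fibrils, differed by -0.099, with 0.089 in N251 and -0.22 in N283 (adjusted p = 0.527). Signals of type I and III chains were near the middle of all genes, whose median of mean signals was 7.45, and background was not measured on these arrays, so folds of such genes could be too small.

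The promoter of Col1a2 is shown as that of a fibrillar chain with little difference, to be set beside those of the basement membrane and type IX genes below. The sequence is that of RefSeq (GRCm38.p6), chr6:4505368-4505567 on the plus strand, bases 250 to 51 before the annotated start, 5′ to 3′. Capitals mark matches to CCAAT and GGGCGG on either strand.

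Col1a2: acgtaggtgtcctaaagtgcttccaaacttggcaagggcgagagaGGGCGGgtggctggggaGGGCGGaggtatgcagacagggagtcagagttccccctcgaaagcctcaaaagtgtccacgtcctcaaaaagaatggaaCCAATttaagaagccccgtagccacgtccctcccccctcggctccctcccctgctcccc

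It holds 2 matches to GGGCGG and 1 to CCAAT, with 0 to TATAAA, and 59.5% of its bases are G or C. Over 32851 promoter windows of the same length, 24.6% hold GGGCGG, 28.4% hold CCAAT and 9.14% hold TATAAA on either strand. Of the 38 windows of 35 collagen genes in that table, 18 hold GGGCGG, 10 hold CCAAT and 4 hold TATAAA. A match is a description of the letters and not a site of binding.

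Col11a1 was the fibrillar chain with the largest difference. It encodes a chain of type XI collagen, which sits inside fibrils and limits their width, and is best known from cartilage. Its values were 9.59, 9.65, 9.46 and 9.82 in the TIC fraction and 8.31, 9.31, 9.34 and 9.08 in the CD24- fraction. The lowest TIC array lay above the highest CD24- array, and the CD24- array of N251 was the lowest of all.

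The difference of Col11a1 was 0.62 ± 0.20 (SE), or 1.54-fold, with tumor differences of 1.28, 0.34, 0.12 and 0.74. It was not called (adjusted p = 0.160, and 0.256 without the block). Without tumor N251 it was 0.40. Col11a2, which encodes another chain of the same trimer, differed by 0.0085 (adjusted p = 0.965).

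Col27a1, a chain of type XXVII collagen known from cartilage, was at 8.43, 8.36, 8.06 and 7.97 in the TIC fraction and at 8.49, 8.35, 8.29 and 7.78 in the CD24- fraction. Its arrays were ordered by tumor more than by fraction, and the difference was -0.020 ± 0.090 (adjusted p = 0.923; the sign turns to 0.027 after median centring of the arrays). The other 7 fibrillar genes were Col2a1, Col3a1, Col5a1, Col5a2, Col5a3, Col11a2 and Col24a1. Their mean differences ran from -0.11 for Col5a1, a chain that starts new fibrils, to 0.014 for Col5a3. The lowest adjusted p among them was 0.479, all 7 overlapped between fractions, and their 95% confidence intervals lay between -0.31 and 0.22. Col5a2, which pairs with Col5a1 in type V collagen, had a TIC value below its partner in each of the 4 tumors, with differences between -0.15 (N251) and -0.0021 (the pool).

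Basement membrane collagens showed no called difference. Of 8 members 0 were called in either direction (limma with the tumor as a block, and 0 without it). At an unadjusted p under 0.05, 2 (25%) were higher and 0 lower, where 14.2% and 8.08% of all genes were. In all 4 tumors 4 members (50%) were higher, beside 23.2% of all genes. The median difference was 0.079, with 0.14, 0.14, -0.028 and 0.035 in N251, N260, N283 and the pool. The 6 type IV genes are known to lie in head-to-head pairs, and the pairs are described in turn.

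Col4a5 and Col4a6 encode the chains of a type IV network found in the basement membrane of some epithelia and of smooth muscle. In RefSeq their annotated starts lie 1343 bases apart on the X chromosome and point away from each other. Their promoter windows are shown because these genes were the members of their class with the largest differences. Both are bases 250 to 51 before the start, 5′ to 3′, for Col4a5 chrX:141475169-141475368 on the plus strand and for Col4a6 chrX:141474127-141474326 on the minus strand (GRCm38.p6). Capitals mark matches to the motifs given above.

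Col4a5: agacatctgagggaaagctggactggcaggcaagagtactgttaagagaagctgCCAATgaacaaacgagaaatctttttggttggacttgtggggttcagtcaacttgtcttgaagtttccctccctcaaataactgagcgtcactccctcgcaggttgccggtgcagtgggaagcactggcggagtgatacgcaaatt

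Col4a6: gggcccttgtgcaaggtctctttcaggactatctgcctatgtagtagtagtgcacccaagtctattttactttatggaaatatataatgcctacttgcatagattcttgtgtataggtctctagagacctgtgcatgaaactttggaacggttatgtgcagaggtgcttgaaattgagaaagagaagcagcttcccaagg

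The Col4a5 window holds 1 match to CCAAT and 0 to the other motifs, and that of Col4a6 holds 0 of the 3. G and C make up 49.5% and 42.5% of their bases. The missing letters say nothing of the factors that act there.

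Col4a6 was at 8.09, 7.68, 8.10 and 7.89 in the TIC arrays of N251, N260, N283 and the pool and at 7.18, 7.27, 7.75 and 7.09 in their CD24- partners. The CD24- array of N283 lay above the TIC array of N260, so the groups overlapped, but each TIC array was above its own partner. The difference was 0.62 ± 0.12 (SE), or 1.54-fold, from 0.35 in N283 to 0.91 in N251. It missed the threshold with the block (adjusted p = 0.0730) and without it (0.147), and passed with the tumor as a random block (0.0285).

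Col4a5 was at 8.18, 7.83, 8.35 and 8.06 in the TIC fraction and at 7.46, 7.40, 7.99 and 7.77 in the CD24- fraction. As for its neighbor, N283 was highest in both fractions, and the TIC array was the higher of every pair. The difference was 0.45 ± 0.094 (SE), or 1.37-fold, with 0.72, 0.43, 0.36 and 0.29 in N251, N260, N283 and the pool (adjusted p = 0.0809, and 0.260 without the block). With array weights both genes were called, at adjusted p-values of 0.0419 for Col4a5 and 0.0470 for Col4a6 (limma).

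Col4a1 and Col4a2, the chains of the common type IV network of nearly all basement membranes, had differences near 0. Col4a1 was at 7.69, 7.37, 7.36 and 7.19 in the TIC fraction and 7.54, 7.20, 7.35 and 7.13 in the CD24- fraction. Col4a2 was at 7.35, 6.98, 7.05 and 7.04 in the TIC fraction and 7.23, 6.88, 7.04 and 6.91 in the CD24- fraction. Both were highest in N251 in either fraction, and the fractions overlapped.

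Their differences were 0.098 ± 0.072 and 0.088 ± 0.069 (SE), above 0 in all 4 tumors and not called (adjusted p = 0.464 and 0.496). The 95% confidence intervals ended at 0.28 for Col4a1 and 0.26 for Col4a2, below the differences measured for Col4a5 and Col4a6. The intervals of Col4a5 and Col4a6 were 0.22 to 0.68 and 0.32 to 0.92. That of Col4a5 overlapped those of Col4a1 and Col4a2, and that of Col4a6 did not. The difference between the pairs of genes was not tested.

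Col4a3 and Col4a4, chains of the specialised network of kidney and lung basement membranes, gave no sign held in all tumors. Col4a3 was at 7.00, 6.84, 6.78 and 6.78 in the TIC fraction and 6.90, 6.76, 6.92 and 6.84 in the CD24- fraction. Col4a4 was at 7.73, 7.59, 7.56 and 7.49 in the TIC fraction and 7.54, 7.39, 7.62 and 7.53 in the CD24- fraction. For both genes the TIC array was the higher one in N251 and N260 and the lower one in N283 and the pool. The differences were -0.0053 (adjusted p = 0.980; the sign turns to 0.042 after median centring and 0.040 after quantile normalization) and 0.070 (adjusted p = 0.668).

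Col15a1 and Col18a1 encode the basement membrane collagens whose ends can be cut off as restin and endostatin, fragments known to act on vessel growth. Col15a1 differed by -0.23 ± 0.11 (SE), with tumor differences of -0.57, -0.13, -0.22 and 0.012 (adjusted p = 0.294). Col18a1 differed by -0.015 (adjusted p = 0.945), above 0 in N251 and N260 and below 0 in N283 and the pool.

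**Figure D2:**
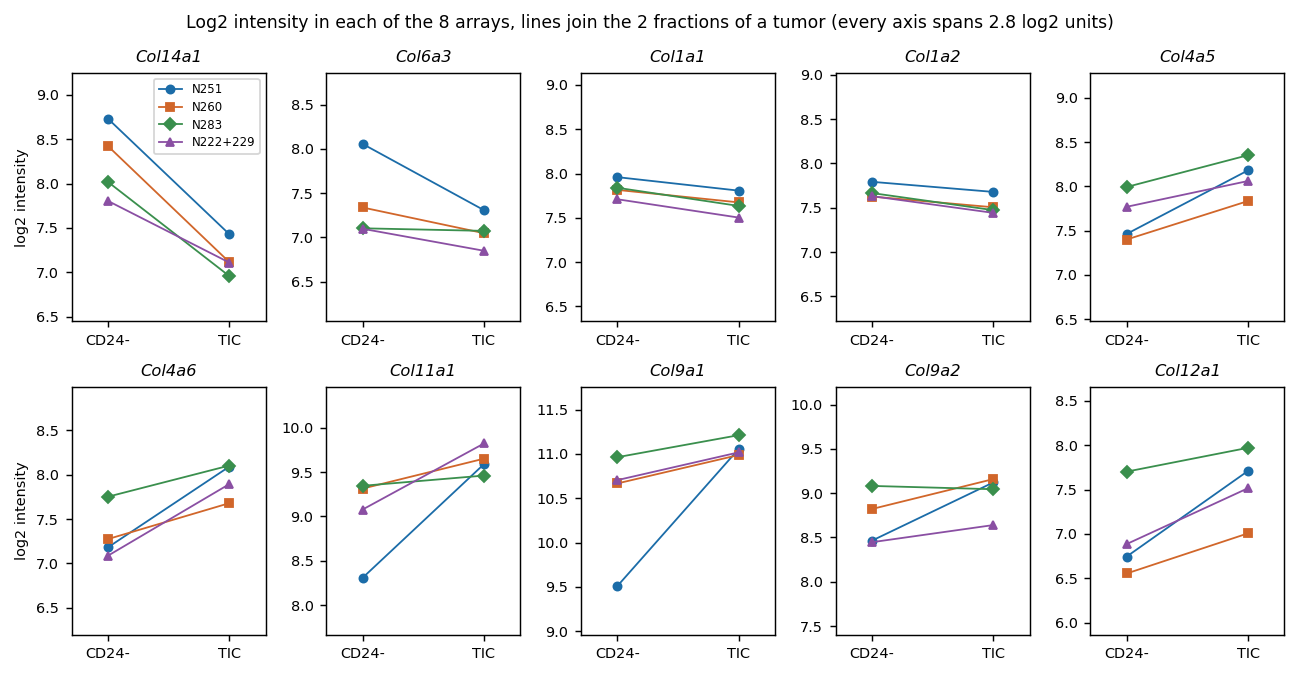
Log2 intensity of 10 collagen genes in the CD24- and TIC array of each tumor, with a line joining the arrays of a tumor and every axis spanning the same range. Lines fall in every tumor for Col14a1, Col6a3, Col1a1 and Col1a2 and rise in every tumor for Col4a5, Col4a6, Col11a1, Col9a1 and Col12a1, and the CD24- array of N251 is the lowest for Col9a1 and Col11a1.

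Among the 25 other collagens Col14a1 was the member that fell in the TIC fraction. It encodes the chain of type XIV collagen, which coats fibrils and is made by fibroblasts of many connective tissues. Its values were 7.43, 7.11, 6.96 and 7.11 in the TIC arrays of N251, N260, N283 and the pool and 8.73, 8.42, 8.02 and 7.80 in the CD24- arrays. Every CD24- array lay above every TIC array, and the CD24- arrays were spread more widely (SD 0.41) than the TIC arrays (SD 0.20, n = 4 each).

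The difference of Col14a1 was -1.09 ± 0.12 (SE), a 2.13-fold lower signal, with -1.30, -1.31, -1.06 and -0.70 in N251, N260, N283 and the pool. It passed with the block (adjusted p = 0.0257, limma) and with the random block (0.00620), and just missed the threshold without a block (0.0504). Without tumor N260 or N283 the difference was -1.02 and -1.10 and was no longer called (adjusted p = 0.203 and 0.158), in limma fits that called 0 of all 19938 genes (1527 higher and 1029 lower without N260, and 2004 and 1339 without N283, at an unadjusted p under 0.05). With all rows of the array tested it was not called (adjusted p = 0.0658). In sorted bulk samples, fewer cells of a type and less RNA per cell cannot be told apart.

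Some markers of other cells were also lower in the TIC fraction. Thy1, a surface protein of fibroblasts and of T cells, was at 7.28, 7.01, 6.54 and 6.36 in the TIC fraction and 9.79, 8.90, 8.14 and 7.27 in the CD24- fraction, with a difference of -1.73 ± 0.25 (adjusted p = 0.0416, and 0.162 without the block; its call was also lost without N260 or N283, with all rows, and among genes at or above the median level). The CD24- arrays of Thy1 had the order of those of Col14a1, with N251 highest and the pool lowest. Csf1r, the growth factor receptor of macrophages, had that order too, at 12.85, 11.88, 10.91 and 10.09 in the CD24- arrays, and so did Ptprc, the CD45 antigen of leukocytes.

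Among the 10 fibroblast markers only Thy1 and Fbln1 had the order of Col14a1 in the CD24- arrays. The macrophage list means had it too, at 12.81, 11.94, 11.01 and 10.30, and the share of all genes with this order was not counted. Dcn, a proteoglycan gene of fibroblasts, had another order. It was at 7.19, 8.86, 6.61 and 8.20 in the CD24- fraction and 6.45, 5.99, 6.28 and 5.94 in the TIC fraction, with the largest difference in N260 (-2.88) and the smallest in N283 (-0.33). Of the 10 fibroblast markers 7 were lower in all 4 tumors and 0 were higher in all 4, where 11.8% and 23.2% of all genes were. Pdgfra, the receptor often used to mark fibroblasts, differed by 0.57, -0.041, -0.20 and 0.36 in N251, N260, N283 and the pool, with a mean of 0.17 (adjusted p = 0.523). Postn, a matrix protein of activated fibroblasts, was above 0 in N283 (0.36) and below 0 in the others. Pdgfrb, a receptor of fibroblasts and pericytes, differed by -0.087 to -0.18. The part of these cells in the difference of Col14a1 was not tested.

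**Figure D3:**
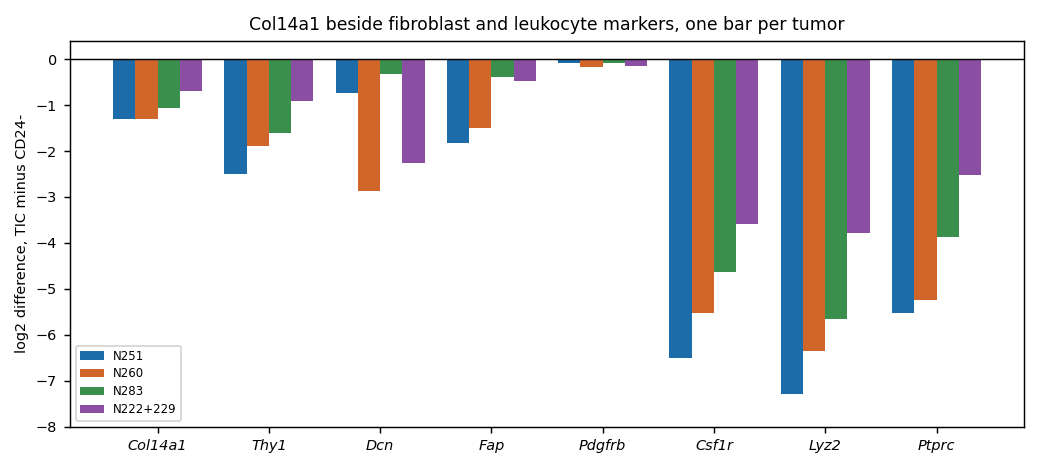
Log2 difference (TIC minus CD24-) of Col14a1 beside the fibroblast markers Thy1, Dcn, Fap and Pdgfrb and the leukocyte genes Csf1r, Lyz2 and Ptprc, with 1 bar per tumor. The fibroblast markers drawn are a part of the 10 listed, of which 7 were lower in every tumor. Not drawn are Pdgfra (0.57 in N251, 0.36 in the pool), Postn (0.36 in N283) and Mfap5 (0.044 in N251), which were higher there. Col14a1 lies between -0.70 and -1.31; Dcn is largest in N260 and the pool, while Thy1, Csf1r, Lyz2 and Ptprc are largest in N251 and smallest in the pool.

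Col12a1 encodes the chain of type XII collagen, a relative of type XIV, and its differences lay above 0 without passing the test. Its values were 7.71, 7.01, 7.97 and 7.52 in the TIC fraction and 6.74, 6.55, 7.70 and 6.89 in the CD24- fraction. N283 was highest and N260 lowest in both fractions, so that tumors differed more than fractions did, and each TIC array was above its partner. The difference was 0.58 ± 0.13 (SE), or 1.49-fold, with 0.97, 0.45, 0.27 and 0.63 in N251, N260, N283 and the pool (adjusted p = 0.0878, and 0.381 without the block).

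Type IX collagen coats the fibrils of cartilage and is built from the products of Col9a1, Col9a2 and Col9a3. Col9a1 was at 11.06, 10.99, 11.21 and 11.02 in the TIC fraction and 9.51, 10.67, 10.96 and 10.70 in the CD24- fraction. Its mean signal lay above 8.91, the upper quartile of gene means, as did that of Col11a1 alone among the other members, though signals of different probes are no order of abundance. All TIC arrays lay above all CD24- arrays, of which that of N251 stood far below the others.

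The difference of Col9a1 was 0.61 ± 0.24 (SE), with 1.55 in N251 and 0.32, 0.25 and 0.31 in N260, N283 and the pool. It was not called (adjusted p = 0.212), and it was 0.29 without tumor N251. The luminal marker mean of the CD24- array of N251 was also the lowest, at 10.28 against 10.95, 11.19 and 11.03 in the other CD24- arrays, and its macrophage mean was the highest. Sox10, a transcription factor gene listed here as a Schwann cell marker, was bright in all arrays, at 11.91, 11.90, 11.70 and 11.98 in the TIC fraction and 10.98, 11.73, 11.79 and 11.93 in the CD24- fraction. The part of these cells in the differences of Col9a1 and Col11a1 was not tested.

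The other type IX chains were not called either. Col9a2 was at 9.12, 9.16, 9.04 and 8.64 in the TIC fraction and 8.46, 8.82, 9.08 and 8.45 in the CD24- fraction, with a difference of 0.29 ± 0.12 (adjusted p = 0.243) and 0.16 without N251. Col9a3 differed by 0.071 (adjusted p = 0.728). In N283 both lay slightly below 0, at -0.037 and -0.24.

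The promoter window of Col9a1 is shown as that of a member whose fractions did not overlap. It is chr1:24177360-24177559 on the plus strand (RefSeq, GRCm38.p6), bases 250 to 51 before the first of 2 annotated starts, 5′ to 3′.

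Col9a1: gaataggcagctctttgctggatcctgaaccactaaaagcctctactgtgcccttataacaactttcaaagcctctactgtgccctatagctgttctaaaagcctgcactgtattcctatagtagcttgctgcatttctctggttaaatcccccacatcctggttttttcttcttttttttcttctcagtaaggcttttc

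It holds 0 matches to the 3 motifs, and 42.0% of its bases are G or C, against 59.5% in the Col1a2 window.

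Col6a3, the largest chain of the beaded filaments of type VI collagen, was at 7.31, 7.05, 7.07 and 6.85 in the TIC fraction and 8.06, 7.34, 7.10 and 7.10 in the CD24- fraction. The CD24- array of N251 stood highest, and the other arrays lay between 6.85 and 7.34. The difference was -0.33 ± 0.13 (SE), with -0.75 in N251 and -0.029 in N283 (adjusted p = 0.211), and was -0.19 without N251. The chains that join it in the same molecule differed by -0.16 (Col6a1) and 0.024 (Col6a2), and Col6a4, Col6a5 and Col6a6 by 0.092, 0.0077 and -0.12. Of the 6 type VI genes 0 were called.

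Collagens that anchor or span the epithelial membrane showed no called difference either. Col17a1, a transmembrane collagen of the plaques that fix basal epithelial cells to the basement membrane, differed by -0.042 (adjusted p = 0.794), and Col7a1, which forms the anchoring fibrils beneath them, by -0.082 (adjusted p = 0.536) with all 4 tumors below 0. Krt5, a keratin of basal cells, was at 5.98 to 6.49 in all arrays. The other transmembrane genes Col13a1, Col23a1 and Col25a1 differed by 0.022, 0.059 and 0.046.

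The network-forming Col8a1, Col8a2 and Col10a1 differed by -0.11, -0.15 and 0.030, with a lowest adjusted p of 0.443. The fibril-coating Col16a1, Col19a1, Col20a1 and Col22a1 differed by 0.11, -0.031, -0.033 and 0.053, and Col26a1 and Col28a1 by -0.055 and -0.058. Over the 29 members not listed by array, single values ran from 5.91 to 8.81, every gene overlapped between fractions, and the lowest adjusted p was 0.294 (Col15a1). Their 95% confidence intervals lay between -0.50 and 0.39, so a 2-fold change of the measured signal lies outside each of them.

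Genes that modify, fold or cross-link collagens were compared next. Of 36 listed 33 were measured, of which 0 rose and 0 fell (limma; without the block 0 too, and without adjustment 10 higher and 2 lower under 0.05), and 13 were higher and 3 lower in all 4 tumors. Over all genes 14.2% were higher and 8.08% lower without adjustment, and 23.2% were higher and 11.8% lower in all 4 tumors. The median difference was 0.11, against 0.038 over all genes. Loxl3, a lysyl oxidase relative that cross-links collagen, was at 9.56, 9.48, 9.51 and 9.63 in the TIC fraction and 8.57, 8.87, 9.17 and 8.90 in the CD24- fraction.

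Loxl3 differed by 0.67 ± 0.12 (SE), or 1.59-fold, and its groups did not overlap. It missed the threshold with the block (adjusted p = 0.0588) and without it (0.0544), and passed with the random block (0.0127), after median centring (0.0487), with array weights (0.0287) and without N251 (0.0440). Bmp1, the protease that trims procollagen ends, was at 8.64, 8.61, 8.63 and 8.14 in the TIC fraction and 8.29, 8.22, 8.38 and 7.77 in the CD24- fraction. Its fractions overlapped, with the pool lowest in both, and it differed by 0.34 ± 0.070 (adjusted p = 0.0801, and 0.0464 with array weights). Serpinh1, the collagen chaperone HSP47, differed by 0.63 (adjusted p = 0.158), with 1.31 in N251 and 0.059 in N283.

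Laminins, nidogens and proteoglycans that share the basement membrane with type IV collagen included 1 called gene. Of 15 listed 14 were measured, of which 1 rose (Lamb3) and 0 fell, where 0.863% of all genes rose and 1.09% fell. In all 4 tumors 6 of the 14 were higher and 2 lower, where 23.2% and 11.8% of all genes were. At an unadjusted p under 0.05 (limma), 6 were higher and 1 lower, where 14.2% and 8.08% of all genes were. The fractions did not overlap for Lama4, Lamb3, Lamc1 and Agrn, which were higher, and for Nid1, which was lower. Over all genes 5.19% were higher and 4.68% lower without overlap. The median difference was 0.15, with 0.55, 0.23, 0.051 and 0.16 in N251, N260, N283 and the pool. Lamb3, the beta chain of laminin-332 that epithelial cells lay down, was at 9.85, 9.09, 9.54 and 9.08 in the TIC fraction and 8.08, 8.22, 8.80 and 7.66 in the CD24- fraction.

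Lamb3 was 2.30-fold higher in the TIC fraction (1.20 ± 0.19 SE, adjusted p = 0.0457), with groups that did not overlap. The call was lost without the block (0.0789), among genes at or above the median level (0.0610), with all rows tested (0.0967) and without N260, N283 or the pool (0.231, 0.158 and 0.0972). Lama4 and Lama1, alpha chains of other laminins, differed by 1.05 and 0.69 and were not called (adjusted p = 0.103 and 0.0730). Nid1, which links laminin to type IV collagen, differed by -0.34 in the mean and by -0.29 to -0.44 in the 4 tumors (adjusted p = 0.0803).

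Of 10 listed collagen receptors 9 were measured, of which 1 fell (Lair1) and 0 rose, beside 1.09% and 0.863% of all genes. Lair1, an inhibitory receptor of leukocytes that binds collagen, was at 6.01, 5.86, 5.75 and 5.75 in the TIC fraction and 10.85, 9.87, 8.67 and 8.18 in the CD24- fraction. It was 11.7-fold lower (-3.55 ± 0.40 SE, adjusted p = 0.0255), and its CD24- arrays had the order of those of Csf1r and Ptprc. The call was lost with all rows tested (0.0653) and without N260 or N283 (0.203 and 0.152).

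Receptors of other cells did not pass the test. Itgb1, the integrin beta chain shared by all collagen-binding integrins, differed by 0.23 (adjusted p = 0.196), Ddr1, a collagen-activated kinase of epithelium, by 0.31 with 1.16 in N251 (adjusted p = 0.456), and Itga2, the alpha chain of the epithelial collagen receptor, by 0.28 (adjusted p = 0.190). Ddr2, the related kinase of mesenchymal cells, differed by 0.12 (adjusted p = 0.551). Itga1, the alpha chain of another collagen-binding integrin, lay below 0 in N251 and N260 (-0.91 and -0.65) and above 0 in N283 and the pool (0.050 and 0.22).

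**Figure D4:**
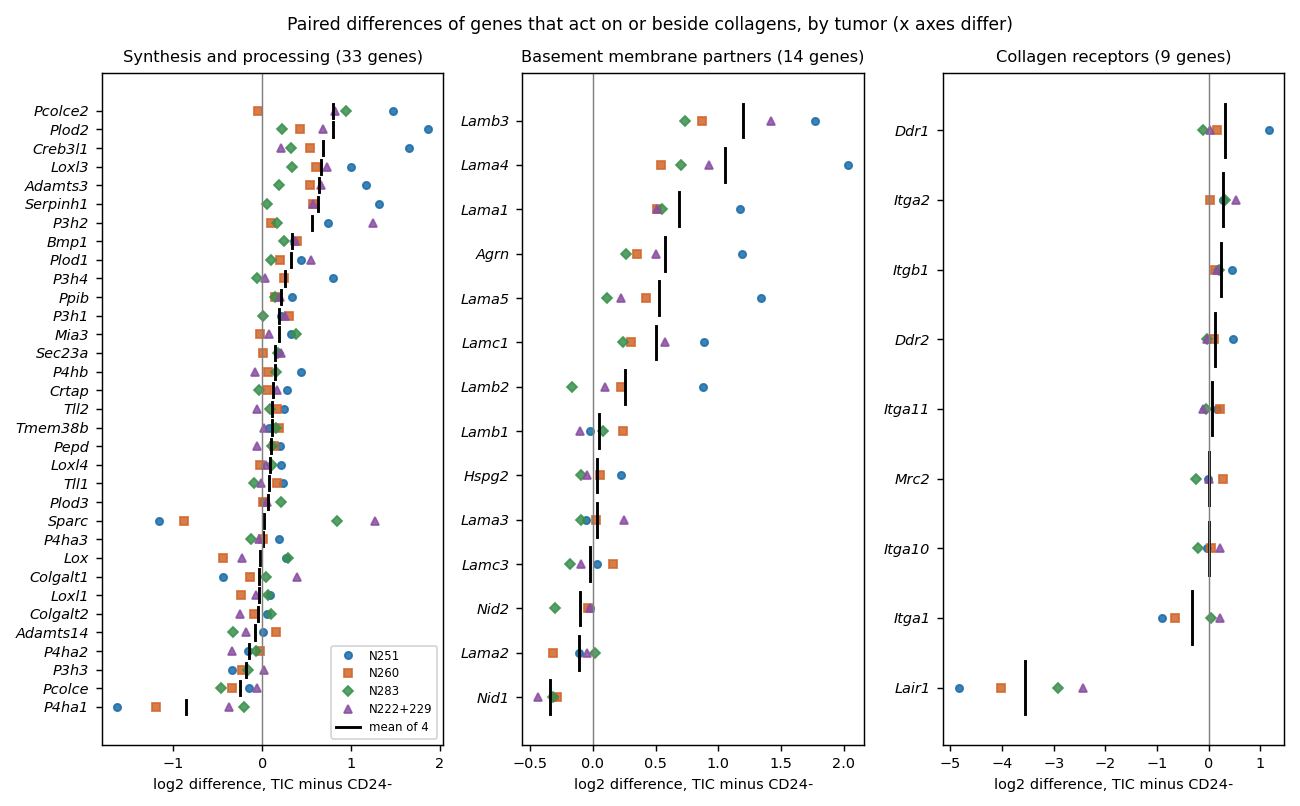
Log2 difference (TIC minus CD24-) by tumor of 33 genes of collagen synthesis and processing, 14 basement membrane partners and 9 collagen receptors; symbols are tumors or the pool, black bars are means, and the x axes differ. Lamb3 lies to the right of 0 in all tumors with a mean of 1.20, Lair1 lies far to the left at -3.55, and Sparc has tumors on both sides of 0.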

How the data were processed

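The deposited values are log2 intensities that the authors made; RMA and Partek were used per the submitters' processing notes, and no version, setting or build is stated there. Titles name tumors N251 and N260 where the growth protocol has N250 and N261, and titles were followed. Of 35556 rows 21789 carried exactly 1 symbol (the brightest row stood for a gene), and all 44 collagen genes matched RefSeq by gene ID with 0 renamed.

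TIC and CD24- arrays were compared with limma 3.58.1 in R 4.3.3 (lmFit, eBayes) over 19938 genes, with the tumor as a fixed block because both fractions came from the same tumor, and Benjamini-Hochberg adjusted p-values called under 0.05. After subtracting group means, the arrays of a tumor correlated over genes (0.32, 0.43, 0.30 and 0.56 in N251, N260, N283 and the pool). The labels call the tumors independent without naming the animals, so p-values measure the spread between these 4 pairs, whose number limits the precision. The script was tested on simulated data. Arrays ranged in value from 1.76 to 14.6 with medians of 7.03 to 7.18, and the highest correlation of 2 arrays was 0.994.

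Members, classes and lists were chosen with earlier results of these data known. Values by array are given for, in each class, the 2 brightest members and up to 2 in each direction with the largest difference of 1 sign in all 4 tumors, for members called with or without the block and for type IV genes. Pathway lists are named by called members or the 2 smallest p, and marker lists by the member with the largest difference, for most of which only that difference is given. Pdgfra, Pdgfrb, Fap, Fbln1, Postn, Coro1a, Itgb2, P4ha1, Plod2, Col3a1, Dcn, Csf1r and Ptprc were chosen after their values were seen. So were Sox10, Krt5, Serpinh1, Lama1, Lama4, Nid1, Sparc and the receptors besides Lair1. Promoter windows are from RefSeq (GRCm38.p6), which held 35 of the 44 genes; the build of the array annotation is not given.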

Additional observations from a re-analysis of the deposited data

How the results depend on the processing

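Of 190 values of the 15 collagen genes given by array under alternative settings, 177 kept their direction and side of the threshold, 4 lost the call (all Col14a1), 3 gained it (Col4a5 and Col4a6) and 6 turned sign. Those 6 are Col27a1 (0.027 after median centring; -0.090 to 0.048 on leaving out a tumor) and Col4a3 (0.042 after centring, 0.040 after quantile normalization, -0.042 to 0.040 on leaving out a tumor, with 0.040 without N283 and 0.013 without the pool). The adipocyte gene Lep ran from -0.010 (without N260) to 0.14 on leaving out a tumor, and to 0.15 with array weights. The basement membrane median was 0.45 over the 3 members at or above the median level, where fewer genes enter; the other 23 class medians moved by less than the SD over tumors.

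Against 172 higher and 218 lower genes and 0 higher and 1 lower collagen gene, the fit with no replicate block gave 10 higher genes and 0 lower collagen genes, and a random replicate block gave 430, 606 and 1 higher collagen gene (Col4a6). Genes at or above the median level gave 63 and 88, median centring 265 higher, array weights 445, 572 and 2 higher collagen genes. With all rows tested there were 0 higher, 2 lower and 0 lower collagen genes. At an adjusted p under 0.01 limma called 0 higher, 0 lower and 0 collagen genes, where 2837 and 1610 genes had an unadjusted p under 0.05. Leaving out a tumor gave 0 to 360 higher, 0 to 480 lower and 0 to 1 lower collagen genes, with 0 called without N260 or N283, 74 higher without the pool, and 360 and 480 without N251; the cause was not tested. Background was not measured, which limits folds of dim genes.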

Other observations

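Sparc, a matrix protein gene whose product binds collagen, had differences of opposite sign in different tumors. In the order N251, N260, N283 and pool it was at 8.83, 7.81, 9.62 and 9.77 in the TIC fraction and 9.99, 8.70, 8.77 and 8.50 in the CD24- fraction. The differences were -1.16, -0.88, 0.84 and 1.27, with a mean of 0.018 (adjusted p = 0.987, limma with the tumor as a block). It was chosen after its values were seen, and a difference between tumors was not tested.

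P4ha1, the catalytic alpha chain of collagen prolyl hydroxylase, was at 8.27 to 8.56 in the 4 TIC arrays and at 9.90, 9.75, 8.48 and 8.91 in the CD24- arrays of N251, N260, N283 and the pool. Its difference of -0.85 had the same sign in each tumor and missed the threshold (adjusted p = 0.144). Plod2, a lysyl hydroxylase that prepares collagen for cross-linking, went the other way by 0.80 (adjusted p = 0.179), with 1.86 in N251 and 0.22 to 0.68 in the others. Both were chosen after their values were seen.

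Of 36 groups of 4 arrays (15 collagen genes and 3 class means in each fraction), 0 held an array past Dixon's critical value.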
